A study of Homo sapiens with 96 samples.

Results

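MS023 inhibits the Type I protein arginine methyltransferases (PRMTs), and this comparison asks how the splicing of poly(A) RNA differed between 4 days and 2 days of it. The samples were chosen by their labels: 3 libraries from A549, a cell line grown from a human adenocarcinoma of the lung, kept in 1 µM MS023 for 2 days, and 3 kept in 1 µM MS023 for 4 days, which are 6 of the 96 samples of the series. For each library the deposited tables give the reads that include and the reads that skip an alternative segment, for skipped exons (SE), retained introns (RI), alternative 3′ splice sites (A3SS), alternative 5′ splice sites (A5SS), and mutually exclusive exons (MXE). Of 155342 events listed in at least 1 of the MS023 tables of 2 and 4 days, 109829 had the same type, chromosome, strand, and coordinates in both. Beside them stand 3 libraries each of DMSO (0.01%) at 4 and 7 days, MS023 at 7 days, GSK591 (1 µM, an inhibitor of PRMT5) at 2 and 4 days, and co-treatment with both inhibitors (1 µM each) at 2 and 4 days. The inhibitor is present in both groups compared and no DMSO library of 2 days enters these tables, so a longer exposure to MS023 and a longer time in culture cannot be told apart. The 7-day DMSO columns were identified as the control that the 7-day tables share. The study used 1 cell line and 1 dose. Nothing in the labels says whether the 3 libraries of a group came from separate cultures, so the p-values measure only the spread between these libraries. The letters a, b, and c give the order of the libraries within a table cell.

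Type I PRMTs place asymmetric dimethylarginine on proteins, and many of their substrates are RNA-binding proteins with glycine- and arginine-rich stretches, among them hnRNP, SR-type, and poly(A)-binding proteins. Exon skipping can change a protein domain in frame or introduce a stop codon, and a retained intron usually holds a transcript in the nucleus or brings in a stop codon. The measure used throughout is Ψ, the share of the inclusion form after division of each count by the effective length of its form, and ΔΨ is the mean Ψ at 4 days minus the mean Ψ at 2 days. In bulk RNA, a change in every cell and a change in a share of the cells cannot be told apart.

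Between 46373111 and 53554057 reads per library lay on the SE events, and between 3657986 and 4166879 on the RI events. Replicate pairs of 1 group differed by 1.98 to 2.99 times the sampling variance (chi-square per degree of freedom), so no pair agreed within sampling noise. Of the markers of the line, the keratins KRT8 and KRT18 had at least 17743 reads on their events in each library. The alveolar marker SFTPC had at most 7, and the leukocyte and endothelial markers PTPRC, CD3E, PECAM1, and CDH5 had no listed event. The epithelial marker KRT19 also had no listed event, and the absence of an event does not show that a gene was not expressed.

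Few events passed the test between the days. An event was tested where each of the 6 libraries had at least 10 reads and the rarer form had at least 10 reads over all of them, and it was called at an adjusted p under 0.05 (quasi-binomial model with dispersion moderated by limma, Benjamini-Hochberg within the event type). Of 33171 SE tested, 59 were called (0.178%), with 30 higher and 29 lower at 4 days. Of 3487 RI, 9 were called (0.258%), with 4 higher and 5 lower. For A3SS it was 3 of 4452 (0.0674%), for A5SS 9 of 2818 (0.319%), and for MXE 7 of 14365 (0.0487%). An unadjusted p under 0.05 was found for 7.95% of SE and 7.97% of RI. The 87 called events lie in 66 genes and several share exons, so they are not independent of each other. In 83 of them the 3 libraries of 1 day lay wholly above or below those of the other, against 11.4% of all 58293 tested events. The called events were also the more deeply read ones, with a median of 2723 reads per library against 251 for all tested events, and 25 of them had an absolute ΔΨ under 0.02. An absolute ΔΨ of at least 0.1 was reached by 19 called SE and 1 called A5SS.

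**Figure D1:**
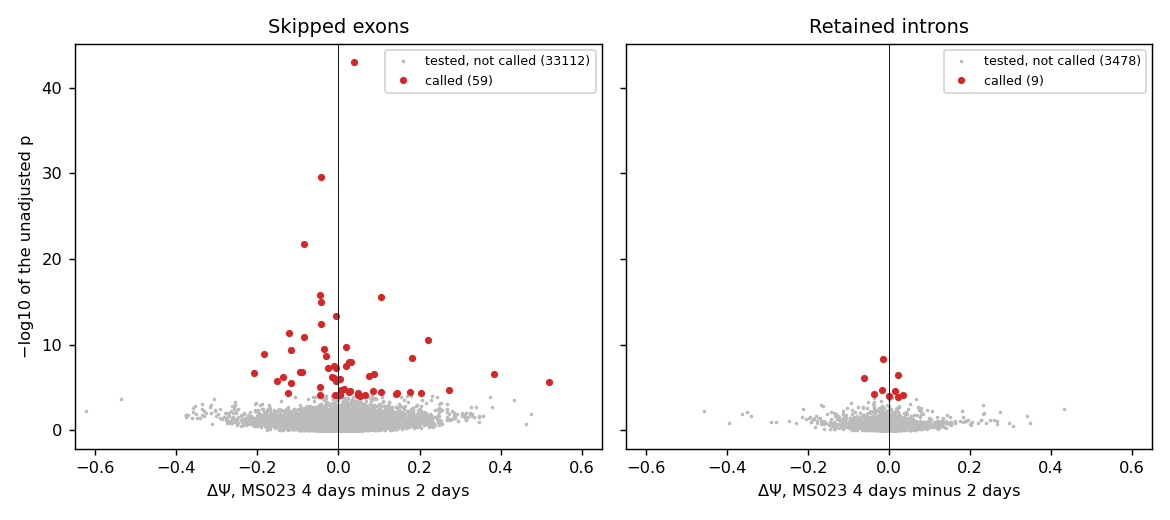
Each point is 1 tested skipped exon (left) or retained intron (right). The horizontal axis is ΔΨ (MS023 at 4 days minus 2 days) and the vertical axis the −log10 of the unadjusted p of the quasi-binomial test. The 59 called exons and 9 called introns (red) lie on both sides of 0. Of 1810 tested exons with an absolute ΔΨ of at least 0.1, 19 were called.

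The estimate of the spread bears on every call that follows. The moderation gave nearly all events of a type the same dispersion, 2.18 times the sampling variance for SE, so an event whose own libraries varied more was judged too leniently. When the dispersion was not allowed below the event's own value, 51 of the 87 calls held. When limma was applied to log2 odds instead, none of the 87 was called, although 37 had an unadjusted p under 0.05. A total of 39 calls held whichever library was left out, and 34 calls, in 23 genes, held both this and the event's own dispersion. No called event changed direction under any setting.

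Some of the shorter called exons are shown here, whereas the called skipped exons had a median length of 108 nt. The exon is in capitals, with 20 intron bases before and 10 after it in lower case. The letters run in the direction of transcription and are from GRCh37, whose coordinates are those of hg19. Of the exons shown, 2 encode only 4 residues each. The length of every exon shown keeps the reading frame.
TEAD1, 12 nt: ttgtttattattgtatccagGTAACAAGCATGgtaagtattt
MYO18A, 12 nt: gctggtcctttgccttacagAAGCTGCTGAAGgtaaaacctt
DIAPH1, 27 nt: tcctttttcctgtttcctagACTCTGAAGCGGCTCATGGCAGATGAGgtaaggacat
CLSTN1, 57 nt: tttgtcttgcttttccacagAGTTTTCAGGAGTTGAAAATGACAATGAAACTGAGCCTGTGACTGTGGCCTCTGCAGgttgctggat
GPBP1, 60 nt: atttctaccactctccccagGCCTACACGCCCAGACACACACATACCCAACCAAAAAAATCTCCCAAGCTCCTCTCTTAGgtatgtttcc
SNRNP70, 72 nt: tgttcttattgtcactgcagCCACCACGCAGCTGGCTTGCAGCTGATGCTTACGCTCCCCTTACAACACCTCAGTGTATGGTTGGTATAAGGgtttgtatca
In the GENCODE reading frame of the exon before it, the SNRNP70 exon holds a stop codon, and the other exons of this list do not.

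SE that rose. GPBP1, a transcription factor gene, has a coding exon of 60 nt on the plus strand of chromosome 5 (hg19, 56532940 to 56532999). Its Ψ was 0.425, 0.339, and 0.382 at 2 days and 0.582, 0.627, and 0.603 at 4 days, with 241 reads or more per library. All 4-day libraries were above all 2-day libraries, the rise was 1.30 ± 0.20 (SE) on the log2 odds scale (adjusted p = 8.55e-08), and the call held without any 1 library. Ψ of this exon was 0.275 ± 0.0255 (SD, n = 3) in DMSO at 4 days and 0.215 ± 0.0087 at 7 days, and 0.474 ± 0.0183 with MS023 at 7 days. DMSO values without a day are those of 4 days.

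LPIN1, which encodes a phosphatidate phosphatase of lipid synthesis, has an exon of 108 nt (chromosome 2, 11916212 to 11916319, plus strand, coding). Its Ψ was 0.491, 0.578, and 0.525 at 2 days and 0.737, 0.759, and 0.645 at 4 days, a rise of 1.16 ± 0.20 on the log2 odds scale (adjusted p = 7.73e-06). Its libraries varied by 4.59 times the sampling variance, and the adjusted p was 0.048 with its own dispersion. It was 0.588 ± 0.025 in DMSO and 0.669 ± 0.0596 in DMSO at 7 days (SD, n = 3). The 12-nt exon of MYO18A, an unconventional myosin (chromosome 17, 27443462 to 27443473, minus strand, coding), had a Ψ of 0.552, 0.501, and 0.433 at 2 days and 0.705, 0.619, and 0.695 at 4 days. This is a ΔΨ of 0.178 (adjusted p = 0.0229), which was lost at up to 0.274 without library b or c of 2 days or a or c of 4 days, and at 0.0682 with its own dispersion. DCAF10, which encodes a substrate receptor of a ubiquitin ligase, has a coding exon of 111 nt (chromosome 9, 37857238 to 37857348, plus strand). Its Ψ was 0.549, 0.495, and 0.584 at 2 days and 0.786, 0.809, and 0.855 at 4 days (adjusted p = 0.0177) with 65 reads or more per library, and this call was lost at up to 0.154 without library a or b of 2 days or b or c of 4 days.

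The largest ΔΨ of a called exon, 0.52, belongs to NPIPA1, whose exon of 1007 nt lies on chromosome 16 from 15042787 to 15043793. NPIPA1 is a member of a multi-copy family with near-identical copies, so its reads are uncertain. Its Ψ was 0.184, 0.192, and 0.287 at 2 days and 0.294, 1, and 0.931 at 4 days, so library a of 4 days sat beside the 2-day libraries. In DMSO it was 0.759 ± 0.248 (SD, n = 3). The libraries varied by 12.9 times the sampling variance, and the adjusted p went from 0.0019 to 0.816 with the event's own dispersion and to as much as 0.248 without library a of 2 days or b or c of 4 days.

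SE that fell. RAB11FIP3, an effector of Rab11 in vesicle traffic, has a coding exon of 135 nt (chromosome 16, 541134 to 541268, plus strand). Its Ψ was 0.574, 0.543, and 0.47 at 2 days and 0.346, 0.338, and 0.275 at 4 days, which fell by 1.27 on the log2 odds scale (SE 0.25, adjusted p = 0.000231). The groups did not overlap, and Ψ was 0.814 ± 0.0806 (SD, n = 3) in DMSO. At 7 days it was 0.575 ± 0.0593 in DMSO and 0.256 ± 0.0103 with MS023. RPS25, a protein of the small ribosomal subunit, has an exon form of 129 nt (chromosome 11, 118888635 to 118888763, minus strand, partly coding, with a stop codon in frame). Its Ψ was 0.664, 0.692, and 0.75 at 2 days and 0.51, 0.511, and 0.533 at 4 days (adjusted p = 2.98e-06), beside 0.869 ± 0.0265 in DMSO, 0.71 ± 0.0237 in DMSO at 7 days, and 0.417 ± 0.0291 with MS023 at 7 days. Between 403 and 495 reads per library lay on the RPS25 event. Both calls held without any 1 library.

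The 27-nt exon of DIAPH1, a formin that nucleates actin filaments (chromosome 5, 140967791 to 140967817, minus strand, coding), fell from 0.776, 0.83, and 0.743 to 0.625, 0.622, and 0.644. Its adjusted p was 0.00183, and 0.16 without library b of 2 days. The 57-nt exon of CLSTN1, a transmembrane protein that docks cargo to kinesin (chromosome 1, 9797556 to 9797612, minus strand, coding), fell from 0.724, 0.703, and 0.711 to 0.546, 0.583, and 0.595 (adjusted p = 0.000617) and was called without any 1 library. In DMSO, CLSTN1 was at 0.697 ± 0.0186 at 4 days and 0.434 ± 0.0882 at 7 days, and with MS023 at 0.506 ± 0.093 at 7 days (SD, n = 3). DOCK9, an activator of the GTPase CDC42, had an exon of 216 nt (chromosome 13, 99481561 to 99481776, minus strand, coding) with a Ψ of 1, 1, and 0.981 at 2 days and 0.761, 0.967, and 0.879 at 4 days. Its 4-day libraries were spread widely, and the adjusted p of 0.0274 became 0.45 with its own dispersion and up to 0.21 without library a or b of 2 days. Without library a of 4 days it was not tested.

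**Figure D2:**
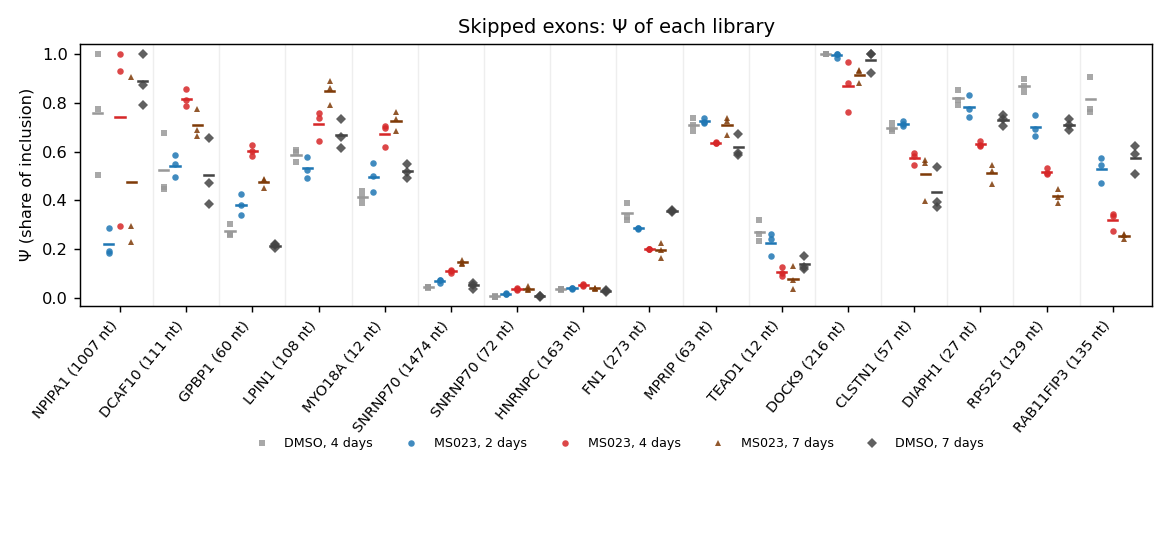
Ψ of each library (points) and the mean of each group (short lines) for the named skipped exons, with the exon length in nt. Groups are DMSO at 4 days (light grey), MS023 at 2 (blue), 4 (red), and 7 days (brown), and DMSO at 7 days (dark grey), with 3 libraries each. For FN1, for example, the 2-day libraries lie between 0.285 and 0.289 and the 4-day libraries between 0.2 and 0.203, whereas NPIPA1 has 1 library of 4 days among those of 2 days.

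Of the 24 genes listed for isoform switches between epithelial and mesenchymal cells, 23 were tested on 279 events, of which 3 were called, all lower at 4 days, against 0.149% of all 58293 tested events. An unadjusted p under 0.05 was found for 10.0% of the list and 7.23% of all events. The median ΔΨ of the list was -1.39e-05, against 0.000387 over all tested events. FN1 encodes fibronectin, and its called exon of 273 nt (chromosome 2, 216257654 to 216257926, minus strand, coding) has the length of the EDB exon, which is known from embryonic and tumor tissue. Its Ψ was 0.289, 0.285, and 0.288 at 2 days and 0.202, 0.2, and 0.203 at 4 days, which fell by 0.68 on the log2 odds scale (SE 0.10, adjusted p = 4.06e-08), and the replicate spread was far smaller than the difference. The 63-nt exon of MPRIP, which tethers myosin phosphatase to actin (chromosome 17, 17083921 to 17083983, plus strand, partly coding, with a stop codon in frame), fell from 0.718, 0.738, and 0.72 to 0.64, 0.635, and 0.634 (adjusted p = 0.00023). At 7 days it was 0.71 ± 0.0355 with MS023 and 0.618 ± 0.0473 in DMSO (SD, n = 3). The 12-nt exon of TEAD1, the DNA-binding partner of YAP (chromosome 11, 12900436 to 12900447, plus strand, coding), fell from 0.261, 0.241, and 0.173 to 0.126, 0.0895, and 0.105 (adjusted p = 0.00288), and this call was lost at up to 0.176 without library a of 2 days or b of 4 days. In DMSO it was 0.273 ± 0.0435 at 4 days and 0.139 ± 0.0286 at 7 days (SD, n = 3). The reads on events of the marker genes were as follows. EPCAM had 27 to 30 reads at 2 days and 69 to 81 at 4 days, CDH1 458 to 622 and 780 to 835, and the mesenchymal filament gene VIM 56040 to 62584 and 44891 to 47892. The fibroblast marker COL1A1 had 44 to 70 and then 92 to 114, while KRT8 and KRT18 overlapped between the days. The other listed markers had no event or, for SFTPC, at most 7 reads. These are raw counts, and their part in the splicing differences was not tested.

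Splicing factor genes. Of the Sm and U1 snRNP list, all 13 genes were tested on 87 events and 2 were called, against 0.149% of all tested events. The 2 are overlapping forms of 1 exon of SNRNP70, which encodes the U1-70K protein of the U1 snRNP. An unadjusted p under 0.05 was found for 6.90% of this list and 7.23% of all tested events. The alternative exon has a short form of 72 nt and a long form of 1474 nt with the same start (chromosome 19, 49605371 to 49605442 and 49605371 to 49606844, plus strand, partly coding), each with a stop codon in frame. Inclusion of the long form was 0.0731, 0.076, and 0.0623 at 2 days and 0.111, 0.114, and 0.103 at 4 days (log2 odds 0.70 ± 0.05, adjusted p = 3.7e-39, and 7.13e-08 with its own dispersion, which was 9.15 times the sampling variance). That of the short form was 0.0182, 0.022, and 0.0181, and then 0.0343, 0.0428, and 0.037 (log2 odds 0.99 ± 0.18, adjusted p = 5.38e-05). Both were lower in DMSO, at 0.0442 ± 0.00214 and 0.00762 ± 0.00337 (SD, n = 3), and at 7 days they were 0.148 ± 0.00708 and 0.0398 ± 0.00842 with MS023 and 0.0523 ± 0.0125 and 0.00759 ± 0.00116 in DMSO. Both calls held without any 1 library.

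In the hnRNP list, 22 of 28 genes were tested on 199 events and 3 were called, all higher at 4 days, and 17.6% had an unadjusted p under 0.05, against 0.149% and 7.23% of all tested events. The median absolute ΔΨ of the list was smaller, at 0.00502 against 0.0134 over all tested events. Its median ΔΨ was 0.000672, against 0.000387. The 3 called are an exon of HNRNPC in the UTR, an intron of HNRNPH1, and a 5′ splice site of HNRNPH3. The HNRNPC exon of 163 nt (chromosome 14, 21731826 to 21731988, minus strand) rose from 0.0381, 0.0414, and 0.0427 to 0.0491, 0.054, and 0.0602 (adjusted p = 0.0128). The longer form of the HNRNPH3 exon, by 45 coding nt (chromosome 10, 70098400 to 70098444, plus strand), rose from 0.761, 0.778, and 0.773 to 0.821, 0.811, and 0.821 (adjusted p = 0.0476). None of the 3 was called with its own dispersion (adjusted p between 0.0504 and 0.0692). HNRNPH3 was not called without any 1 library, at up to 0.246, and HNRNPC was lost at up to 0.248 without library a of 2 days or b or c of 4 days. In the list of SR proteins and TRA2, 15 of 18 genes were tested on 86 events, and the 2 called are overlapping events of SRSF5. In 172 events of 21 other arginine-methylated RNA-binding protein genes, the only call was an intron of PABPC1. An unadjusted p under 0.05 was found for 12.8% of the former list and 10.5% of the latter.

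No event was called among the arginine methyltransferases and their cofactors (75 events of 10 genes), the mRNA export factors (125 events of 19 genes), the other splicing regulators (312 of 30), the nonsense-mediated decay factors (95 of 14), the listed snoRNA host RNAs (145 of 12), the cell cycle genes (263 of 39), and the interferon response genes (95 of 14). In the same limma-moderated quasi-binomial test, the number of their events with an unadjusted p under 0.05 was 7, 11, 26, 4, 17, 18, and 11 in this order, or between 4.21% and 11.7% of a list against 7.23% of all events. With 0.149% of all tested events called, no call in lists of this size says nothing particular about their genes. C17orf76-AS1, a snoRNA host with called events that is described below, was not among the genes tested in the snoRNA list. The p53 and apoptosis list had 1 call among 159 events of 24 genes, the BAX intron described next.

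Of the 9 called introns, 8 are shown by their splice sites, with exon bases in capitals and intron bases in lower case, because these are the letters that the spliceosome reads at each end of the intron.
BAX: TGGgtgaga and actgatgtccctgtctccagGAC
SRSF5: CAGgtttgt and cacaattatcttgtgttaagGAT
HNRNPH1: AAGgtttga and attctaagcacctctttcagTAT
YBX3: AATgtacgt and ctgtttctttgcttcgctagTAC
C17orf76-AS1: TGGgtaagt and taattgctatattcacctagGTT
UCHL1: AAAgtgagt and gccttgtctcctctccgcagGTG
RPL28: CCGgtgagt and cctccctgacccccaaccagGCC
MYL6: CAGgtgatg and actttctgcccatgctgcagACA
GAS5 (not called): CAGgttagt and tatttttcatcttcaaacagGCA
NOP2 (not called): ACAgtgaga and tgtcttccccccacatccagGTA
ANKZF1 (not called): AGGgtttga and catgtcaggtttttccctagGTT
Each of the 8 called introns that follow a coding exon holds a stop codon in the GENCODE frame of that exon, as do 81.3% of the tested introns with a coding frame.

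RI that fell. BAX encodes a pro-apoptotic protein of the mitochondrial outer membrane, and the intron lies between coding exons (617 nt, chromosome 19, 49464172 to 49464788, plus strand). Its Ψ was 0.484, 0.473, and 0.488 at 2 days and 0.427, 0.427, and 0.404 at 4 days, a ΔΨ of -0.0623 that is the largest of the called introns (adjusted p = 0.000848, with 4762 reads or more per library). It was 0.491 ± 0.0375 (SD, n = 3) in DMSO, so the 2-day level was within the spread of the controls. At 7 days it was 0.234 ± 0.00641 with MS023 and 0.264 ± 0.0212 in DMSO, both below every library of 2 and 4 days. SRSF5 is an SR protein, and its intron of 1215 nt (chromosome 14, 70235969 to 70237183, plus strand) fell from 0.242, 0.242, and 0.25 to 0.203, 0.207, and 0.212 (adjusted p = 0.031). An alternative 3′ splice site inside the same intron (segment 70236228 to 70237183) fell from 0.226, 0.23, and 0.239 to 0.188, 0.195, and 0.202 (adjusted p = 0.018). The SRSF5 intron was called without library c of 4 days and lost at up to 0.137 without any other, and the splice site was lost at up to 0.243 without library b or c of 2 days or a or b of 4 days. DMSO stood at 0.185 ± 0.00429 for the intron, below both days. UCHL1, a deubiquitinating enzyme, had an intron of 482 nt (chromosome 4, 41259144 to 41259625, plus strand) that went from 0.196, 0.188, and 0.178 to 0.169, 0.166, and 0.17 (adjusted p = 0.0167, but 0.142 with its own dispersion, and up to 0.254 without library a or b of 2 days or b of 4 days). The intron of the ribosomal protein gene RPL28 (chromosome 19, 55898062 to 55899297) was retained rarely, at 0.0063 ± 0.000585 (SD, n = 3) and 0.00517 ± 0.00015, and its call (adjusted p = 0.0418) held only without library b of 2 days among the 6 left out in turn, at up to 0.392 otherwise.

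RI that rose. YBX3 encodes a cold-shock protein that binds mRNA, and its intron of 3096 nt (chromosome 12, 10862714 to 10865809, minus strand, between coding exons) rose from 0.0542, 0.0532, and 0.0576 to 0.0721, 0.0782, and 0.082 (log2 odds 0.53 ± 0.09, adjusted p = 0.000592), a call that held without any 1 library. It was 0.0312 ± 0.00429 (SD, n = 3) in DMSO, and at 7 days 0.0385 ± 0.00383 with MS023 and 0.0192 ± 0.00413 in DMSO. The HNRNPH1 intron of 206 nt (chromosome 5, 179048037 to 179048242, minus strand) rose from 0.0987, 0.09, and 0.0918 to 0.117, 0.122, and 0.111 (adjusted p = 0.0462), and was 0.122 ± 0.00374 in DMSO, and at 7 days 0.0675 ± 0.00731 with MS023 and 0.104 ± 0.0127 in DMSO. That of PABPC1, the cytoplasmic poly(A)-binding protein (198 nt, chromosome 8, 101730117 to 101730314, minus strand), rose from 0.0596, 0.0567, and 0.0518 to 0.0754, 0.0682, and 0.0718 (adjusted p = 0.0167). The HNRNPH1 call was lost at up to 0.197 without library b or c of 2 days or a or b of 4 days, and that of PABPC1 at up to 0.137 without library b or c of 2 days or a of 4 days. MYL6, the essential light chain of non-muscle myosin, has a called intron (402 nt, chromosome 12, 56553407 to 56553808) and a called 3′ splice site in it (56553759 to 56553808). For the intron Ψ was 0.951, 0.942, and 0.958 at 2 days and 0.953, 0.999, and 1 at 4 days, and for the splice site 0.945, 0.928, and 0.95, and then 0.944, 0.999, and 0.999. In both, library a of 4 days was within the 2-day range, the libraries varied by 58.3 and 57.3 times the sampling variance, and the adjusted p became 0.889 and 0.997 with the event's own dispersion. The MYL6 intron was also lost at up to 0.178 without library b or c of either day.

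**Figure D3:**
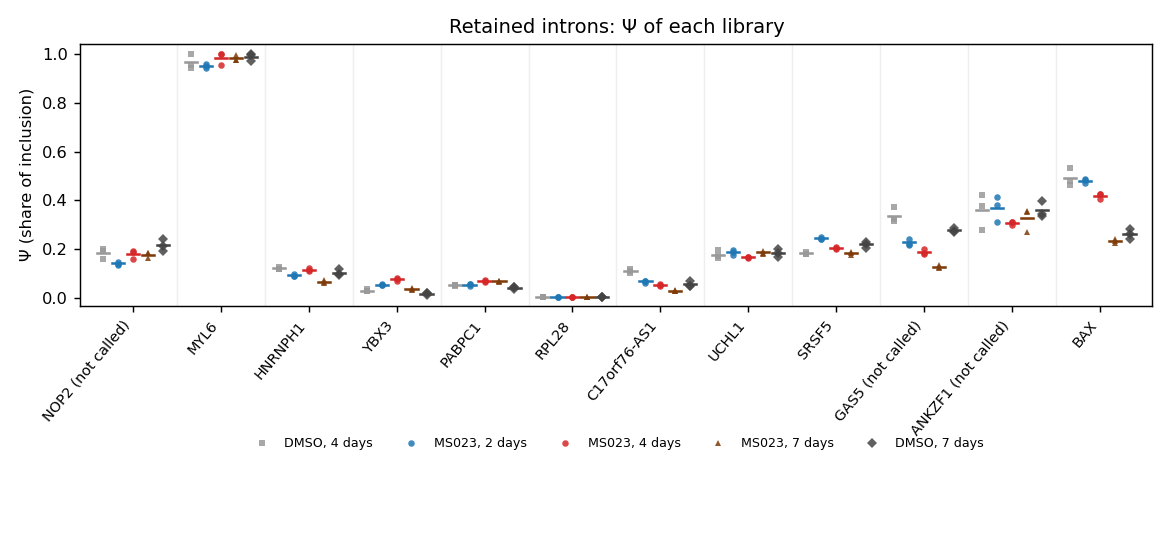
Ψ of each library (points) and group means (short lines) for the called retained introns and for GAS5 intron 9, NOP2 intron 14, and ANKZF1 intron 9, which were not called. Groups are DMSO at 4 days (light grey), MS023 at 2 (blue), 4 (red), and 7 days (brown), and DMSO at 7 days (dark grey), with 3 libraries each. The mean of BAX is 0.481 at 2, 0.419 at 4, and 0.234 at 7 days of MS023 and 0.264 in DMSO at 7 days, whereas SRSF5 at 2 and 4 days of MS023 lies above DMSO of 4 days.

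Of the introns that the study follows, GAS5 intron 9, NOP2 intron 14, and ANKZF1 intron 9 did not pass the test between the days, and HNRNPH1 intron 14 was not matched to an event here. GAS5 is a non-coding host of snoRNAs, and its intron 9 (168 nt, chromosome 1, minus strand) had a Ψ of 0.244, 0.219, and 0.222 at 2 days and 0.204, 0.18, and 0.185 at 4 days (adjusted p = 0.152), with all 4-day libraries below all 2-day libraries. NOP2 encodes a nucleolar RNA methyltransferase, and its intron 14 (120 nt, chromosome 12, minus strand) was at 0.15, 0.138, and 0.139, and then at 0.195, 0.161, and 0.187 (adjusted p = 0.379). Here all 4-day libraries were above all 2-day libraries. The libraries of the days did not overlap in 12.4% of all tested RI. ANKZF1 intron 9 (537 nt, chromosome 2, plus strand) was at 0.313, 0.416, and 0.381, and then at 0.312, 0.312, and 0.302 (adjusted p = 0.72). ANKZF1 acts in the quality control of stalled ribosomes. Library a of 2 days lay beside the 4-day libraries, and the event had 207 to 293 reads per library.

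C17orf76-AS1, a long non-coding RNA that hosts snoRNAs, was the gene called in all 5 event types, and its events overlap along the same 770 nt of chromosome 17 (16342729 to 16343498, plus strand). Retention of the whole intron was 0.0642, 0.0727, and 0.0706 at 2 days and 0.0567, 0.0546, and 0.0503 at 4 days (adjusted p = 1.51e-05, and 0.0209 with its own dispersion). Use of a 5′ splice site 289 nt further into the intron was 0.252, 0.27, and 0.262, and then 0.227, 0.213, and 0.223 (log2 odds fell by 0.32, SE 0.04, adjusted p = 1.71e-15, and 4.18e-06 with its own dispersion). Extension of the exon after it by 604 nt (16342895 to 16343498) was 0.06, 0.0669, and 0.0692, and then 0.0534, 0.0517, and 0.0473 (adjusted p = 3.19e-10, and 0.0271 with its own dispersion). In the MXE event the exon of 88 nt before the intron (16342641 to 16342728) rose from 0.79, 0.782, and 0.789 to 0.815, 0.836, and 0.821 (adjusted p = 0.00157, and 0.101 without library b of 4 days). The intron, the 5′ splice site, and the extension each stood higher in DMSO, at 0.112 ± 0.00675, 0.361 ± 0.00383, and 0.101 ± 0.00849 (SD, n = 3), and lower with MS023 at 7 days, at 0.0311 ± 0.000895, 0.138 ± 0.00364, and 0.0325 ± 0.000975. In DMSO at 7 days they were 0.0576 ± 0.0124, 0.227 ± 0.0334, and 0.0553 ± 0.00962. The calls of the intron, the 5′ splice site, and the extension held without any 1 library.

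Among the 9 called alternative 5′ splice sites, that of TAF6, a subunit of the general transcription factor TFIID, had the largest ΔΨ. The longer form, by 267 nt (chromosome 7, 99710972 to 99711238, minus strand, partly coding), rose from 0.768, 0.746, and 0.733 to 0.882, 0.901, and 0.913 (log2 odds 1.54 ± 0.33, adjusted p = 0.000967), beside 0.841 ± 0.00733 (SD, n = 3) in DMSO and 0.913 ± 0.0148 in DMSO at 7 days, and the call held without any 1 library. FNTA, a subunit of protein farnesyltransferase, used a UTR site 3077 nt downstream (chromosome 8, 42932508 to 42935584) at 0.205, 0.243, and 0.183, and then at 0.304, 0.281, and 0.274 (adjusted p = 0.0115, but 0.0923 with its own dispersion and up to 0.26 without library a or c of 2 days or a of 4 days). FXYD2, a regulator of the sodium pump, rose from 0.0135, 0.00341, and 0.00823 to 0.0799, 0.0521, and 0.0424 (chromosome 11, 117694877 to 117695368, adjusted p = 0.0115) on as few as 58 reads, and this was lost at up to 0.246 without any library of 2 days or library a of 4 days. The calls of the ribosomal protein genes RPS19 (0.00909 and 0.00583, adjusted p = 0.0029) and RPL26 (0.0191 and 0.0146, adjusted p = 0.00117) concern rarely used sites. That of RPS19 was lost at up to 0.0947 without library c of 2 days or a of 4 days, and that of RPL26 at 0.358 without library a of 4 days and at 0.651 with its own dispersion.

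Among the 7 called mutually exclusive exons, that of WNK1, a kinase that controls ion transport, had the largest ΔΨ. Its exon of 1239 nt (chromosome 12, 977032 to 978270, plus strand, coding) was included at 0.176, 0.199, and 0.175 at 2 days and at 0.307, 0.261, and 0.263 at 4 days (adjusted p = 0.00157), and in DMSO it was at 0.00861 ± 0.00167 (SD, n = 3). The event was absent from the 7-day table. An exon of PTGR1, a prostaglandin reductase (57 nt, chromosome 9, 114355206 to 114355262, minus strand), rose from 0.547, 0.54, and 0.569 to 0.606, 0.624, and 0.59 (adjusted p = 0.00309, but 0.105 with its own dispersion and 0.154 without library b of 4 days). A second called event of the same PTGR1 exon held without any 1 library. Its adjusted p in the quasi-binomial test was 0.000338, and the same with its own dispersion. The RPS7 event fell from 0.0429 ± 0.00132 (SD, n = 3) to 0.0305 ± 0.00284 (adjusted p = 0.0196, up to 0.138 without library a or c of either day).

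What the called exons share was described without a test, since the exons were selected by the same contrast. The called SE events had a median Ψ of 0.481 at 2 days, against 0.922 for all tested SE events. Their median reads per library were 1268, against 234. The shares that follow were not matched for Ψ or depth. The 58 called skipped exons had a median length of 108 nt, against 118 nt for 27093 tested exons, and 74.1% were a multiple of 3 nt long, against 42.9%. Of the 49 with a coding frame, 37 (75.5%) were a multiple of 3 and free of an in-frame stop codon, against 37.3% of the tested exons. A total of 4 of the 58 were at most 30 nt long (6.9%), against 1.65%. The hexamer TGCATG, which RBFOX proteins are known to bind, was searched for on the transcript strand in the 200 intron bases after each exon. It was found beside 9 of the 29 exons that were lower at 4 days (31.0%) and 1 of the 29 that were higher (3.45%), against 6.32% of the tested exons. In the 200 bases before the exon it was found for 3 and 4 of the 29, against 5.87%. The hexamer ACTAAC, bound by QKI, was found after 1 of the 58 called exons, against 2.16% of the tested ones.

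Of the exons that fell, those of FN1, MPRIP, EPB41L1, DIAPH1, and RAB11FIP3 had the hexamer and a ΔΨ between -0.21 and -0.086, and those of MYL6, S100A4, and RPLP1 had it and a ΔΨ between -0.0432 and -0.00711. The matches nearest to their exon are shown with 8 bases on either side.
DIAPH1, 24 nt after the exon: ttagcatgTGCATGttctagct
MPRIP, 23 nt after: ccaccgccTGCATGcactgctc
FN1, 42 nt after: gatggtgtTGCATGctgccacc
EPB41L1, 117 nt after: tctcgtgtTGCATGactgcccc
Among tested exons of intermediate Ψ, called or not, those with the hexamer were lower only slightly more often, and this was not tested. Among 7442 tested exons with a mean Ψ between 0.1 and 0.9, the 495 with the downstream hexamer had a median ΔΨ of 0.00149 and were lower at 4 days in 49.1% of cases. The 6947 without it had a median ΔΨ of 0.00425 and were lower in 46.6%. A match is a run of letters and says nothing of what binds there in these cells.

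DMSO was measured at 4 and 7 days, and its own change over that time was set beside the called events, as a description across other days and libraries. Of the 41 events that were lower at 4 days of MS023, 30 were also lower in DMSO at 7 than at 4 days (73.2%), with a median DMSO difference of -0.0262. Several of the 41 overlap within a gene, so they are not independent of each other. Of all tested events that were lower with MS023, 52.6% were lower in DMSO. Of the 46 that were higher, 44 had at least 10 reads in each DMSO library, and 23 of those were higher in DMSO at 7 days (52.3%, against 47.8% of all tested events that were higher with MS023). BAX, CLSTN1, RAB11FIP3, RPS25, TEAD1, and C17orf76-AS1 are among those lower on both counts. The part of time in culture in these calls was not tested.

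Across all tested events the median level of inclusion differed little between the days. The median Ψ of the tested SE was 0.9253 ± 0.000364 (SD, n = 3) at 2 days and 0.9288 ± 0.00143 at 4 days, and all 3 libraries of 4 days were above all of 2 days (exact permutation p = 0.1, two-sided, and with 3 against 3 it cannot be smaller). That of the RI was 0.122 ± 0.00321 and 0.1167 ± 0.00262 (exact permutation p = 0.2). For A3SS, A5SS, and MXE the exact permutation p was between 0.4 and 0.8. The median over events of ΔΨ itself was 0.000609 for SE and -0.00108 for RI.

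The change from 2 to 4 days was then set against that of the other treatments, which share no library with it, with an interaction term over the 12 libraries concerned. Compared with GSK591, the changes differed in 39 of 3398 RI (1.15%), 104 of 31302 SE (0.332%), 10 A3SS (0.238%), 20 A5SS (0.749%), and 4 MXE (0.0334%). Compared with co-treatment, they differed in 66 of 3404 RI (1.94%), 200 of 31779 SE (0.629%), 19 A3SS (0.449%), 17 A5SS (0.628%), and 42 MXE (0.342%). In 35 of the 39 RI the change with MS023 was the more negative, with a median ΔΨ of -0.00921 for MS023 and 0.0715 for GSK591. Of the 66 RI it was the more negative in 50, with medians of -0.00199 and 0.0357. With limma on the log2 odds these calls fell to 0 RI and 1 SE against GSK591 (344 and 2118 at an unadjusted p under 0.05) and to 0 in every type against co-treatment (335 RI and 2428 SE). Only 1 of the 39 and 2 of the 66 were called between the days with MS023 alone. The 39 RI lie in 36 genes and the 66 in 59 genes, so they are not independent of each other. Several of the 66 are introns of GAS5, some of them overlapping, in which the change with co-treatment was the more negative. The numbers called depended on the MS023 libraries. For the RI against GSK591 they were 19 without library a of 2 days, 25 without b of 2 days, and 23 without any 1 library of 4 days, and for co-treatment 34 without library b of 2 days.

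**Figure D4:**
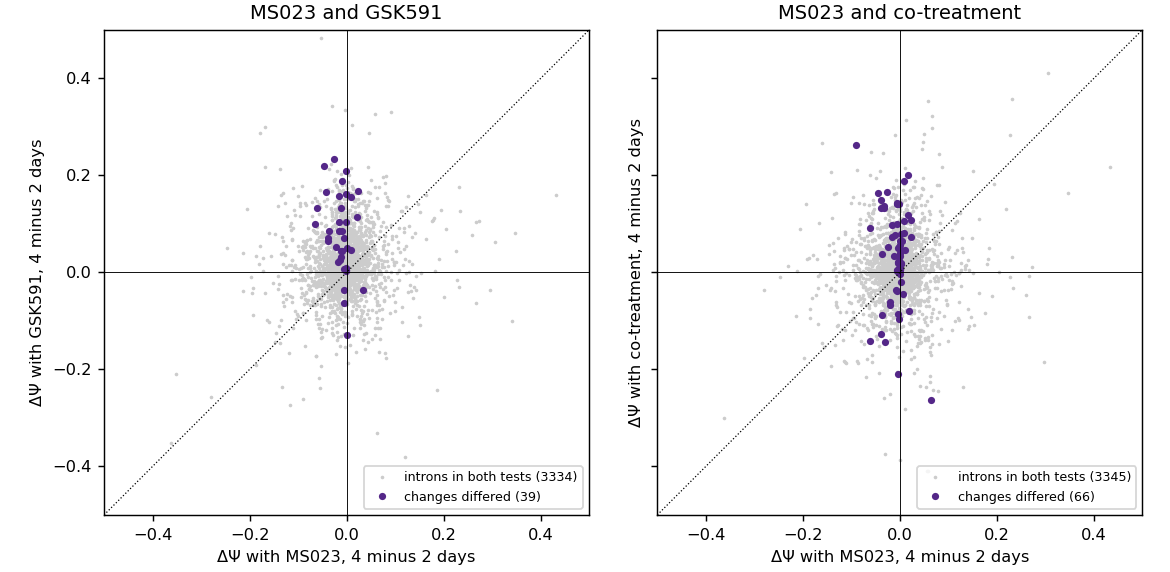
Each point is 1 intron, with ΔΨ from 2 to 4 days of MS023 on the horizontal axis and ΔΨ from 2 to 4 days of GSK591 (left) or co-treatment (right) on the vertical axis. Introns whose changes differed in the interaction test are purple (39 and 66), and on the dotted line both changes are equal. The purple points lie near 0 on the MS023 axis and mostly above 0 on the other.

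Introns of POLD1, a DNA polymerase subunit, and PLXNB2, a semaphorin receptor, show this. The POLD1 intron (chromosome 19, 50919084 to 50919652) was at 0.156 and 0.145 with MS023 at 2 and 4 days and at 0.624 and 0.812 with GSK591. Another POLD1 intron (50905382 to 50905461) went the other way against co-treatment. Its ΔΨ was 0.0187 with MS023 and -0.0801 with co-treatment (interaction adjusted p = 0.018, quasi-binomial model). The PLXNB2 intron (chromosome 22, 50719929 to 50719994) was at 0.134 and 0.108 with MS023 and at 0.436 and 0.669 with GSK591. Another example is ABCC3, a membrane transporter (chromosome 17, 48755305 to 48755453), at 0.332 and 0.355 with MS023 and at 0.569 and 0.736 with GSK591. These introns were picked after their values were seen. With co-treatment, the ΔΨ from 2 to 4 days was -0.142 for the BAX intron and -0.127 for GAS5 intron 9, beside -0.0623 and -0.0388 with MS023, and these changes differed (interaction adjusted p = 0.000368 and 0.000727, quasi-binomial model). For the FN1 exon it was -0.1 with co-treatment and -0.0923 with GSK591, beside -0.086 with MS023, and no difference passed the test (interaction log2 odds 0.00 and 0.05, adjusted p = 0.999 and 0.968).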

How the data were processed

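The authors trimmed reads with Trim Galore 0.6.5, aligned them to hg19 with STAR 2.4.2a, and counted splicing events with rMATS, setting every inhibitor group against a DMSO group, per the labels. The deposited tables hold whole-number inclusion and skipping counts, 3 libraries to a cell, which are not normalized, with effective lengths and the Ψ of each library. They also hold p-values and differences of the authors' own test, which were not used. 7 tables were used, 0 columns of per-sample values were left out, and Ψ recomputed from the counts was within 0.0005 of the deposited value. DMSO counts were identical between tables, so the MS023 columns were compared directly.

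The main test was a quasi-binomial logistic model with the Pearson dispersion moderated by squeezeVar (limma 3.58.1, R 4.3.3) with a lower bound of 1, an F test, and Benjamini-Hochberg adjustment within the event type. Named events are called events with at least 20 reads in every library and 1 event per gene and type: up to 5 each way for SE and RI and up to 3 for the other types by absolute ΔΨ, up to 2 called events of each gene in 13 gene lists, and 3 of the introns that the study follows. The events, lists, and motifs were chosen with earlier results of these data known. Annotation is GENCODE 44 on GRCh37, with coordinates counted from 1. The counts cover reads and not molecules. The values of 1 called exon are not reported here.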

Additional observations from a re-analysis of the deposited data

Results flagged for a closer look

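The change from 2 to 4 days differed between treatments for several named events (interaction term, quasi-binomial model moderated by limma, adjusted p under 0.05), given here as the change with MS023 minus the other change on the log2 odds scale. Against GSK591 the difference was 1.91 for the NPIPA1 exon (ΔΨ 0.52 with MS023 and 0.00324 with GSK591), -0.72 for the long SNRNP70 exon form (0.0392 and 0.0764), -0.66 for the MPRIP exon (-0.0888 and 0.0114), 5.30 for the MYL6 intron (0.0334 and -0.0366), 5.28 for the MYL6 3′ splice site (0.0398 and -0.041), and -0.43 for the 5′ splice site of C17orf76-AS1 (-0.0403 and 0.0103). Against co-treatment it was -0.60 and -1.40 for the long and short SNRNP70 forms (0.0392 and 0.0435 for the long, 0.0186 and 0.0161 for the short), 1.66 for the CLSTN1 exon (-0.138 and -0.258), -0.69 for the YBX3 intron (0.0224 and 0.0735), 0.77 for GAS5 intron 9 (-0.0388 and -0.127), 0.52 for the BAX intron (-0.0623 and -0.142), and 0.34 for the PTGR1 exon (0.0548 and -0.00101). It was -2.29 for the MYL6 splice site (0.0398 and 0.0371), and -0.40, -0.40, and 0.57 for the A3SS, A5SS, and MXE events of C17orf76-AS1 (-0.0146 and 0.000671, -0.0403 and 0.00748, 0.0371 and -0.0156). For the short SNRNP70 form and the MYL6 splice site, the difference in ΔΨ has the opposite sign to that on the log2 odds scale. The libraries of NPIPA1 and MYL6 varied by more than 12 times the sampling variance, and their differences were tested with a smaller dispersion than that.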

How the results depend on the processing

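The 4 against 2 day calls depended mostly on how the spread was estimated. With limma on the log2 odds the calls fell to 0 SE, 0 RI, 0 A3SS, 0 A5SS, and 1 MXE, with 1993, 214, 246, 173, and 790 events at an unadjusted p under 0.05. With a dispersion not below the event's own, chosen after seeing the data, they were 34 SE, 5 RI, and 4 A5SS. With a rarer form of at least 1 read they were 107 SE, 5 A3SS, and 15 A5SS, with at least 20 reads per library 5 A3SS, and with adjustment over all 5 types 5 A3SS and 11 MXE. Leaving out 1 library gave 43 to 56 SE, 5 to 12 RI (5 without b or c of 2 days or b of 4 days), 2 to 7 A3SS (7 without a of 2 days), 2 to 11 A5SS (5 without a and 3 without c of 2 days, 2 without a of 4 days), and 8 to 31 MXE (31 without b and 13 without c of 2 days, 15 without a and 13 without b of 4 days). The cause was not tested.

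The difference in median Ψ of A3SS was 0.0032 with at least 20 reads and between -0.00825 and 0.00118 without 1 library, and that of MXE between -0.000611 and 0.00252, so neither had a stable direction.

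For the interaction with GSK591, limma called 1 SE and 0 of RI, A3SS, A5SS, and MXE (2118, 344, 255, 188, and 845 at an unadjusted p under 0.05), and leaving out 1 library gave 65 to 89 SE (65 without b of 4 days), 19 to 29 RI, 1 to 11 A3SS, 9 to 18 A5SS, and 2 to 5 MXE. For co-treatment limma called 0 in each type (2428, 335, 290, 191, and 863), and leaving out 1 library gave 168 to 196 SE, 34 to 70 RI, 11 to 20 A3SS, 11 to 19 A5SS, and 42 to 46 MXE. Over 503 settings of the 42 named events, 379 left the call as it was, 124 lost it, and 0 turned the direction. A planned variant of the count test, with a library term, was not run. No paired analysis was possible because the count columns carry no replicate numbers.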

Other observations

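Called exons outside the naming rule include those of PLOD2, EPB41L1, KTN1, MYL6, SHMT1, and TERF1, which were picked here after their values were seen. The 63-nt exon of PLOD2, a lysyl hydroxylase of collagen, fell from a Ψ of 0.659 ± 0.00776 (SD, n = 3) at 2 days to 0.542 ± 0.00881 at 4 days (adjusted p = 1.06e-06, quasi-binomial model). The 411-nt exon of EPB41L1, a membrane skeleton protein, fell from 0.364 ± 0.0123 to 0.241 ± 0.00877 (adjusted p = 1.44e-08), the 84-nt exon of KTN1, a kinesin receptor, from 0.494 ± 0.0169 to 0.398 ± 0.0321 (adjusted p = 0.00023), and the 45-nt exon of MYL6 from 0.195 ± 0.00658 to 0.151 ± 0.013 (adjusted p = 1.65e-09). All 4 calls held without any 1 library and with the event's own dispersion. A called exon of the metabolic enzyme SHMT1 rose from 0.721 to 0.864 and 1 of the telomere protein TERF1 from 0.313 to 0.459 (adjusted p = 0.0333 and 0.0323), but neither held with its own dispersion (0.312 and 0.208).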
